A study of Homo sapiens with 12 samples.

Results

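The question was whether silencing YAP changed the transcriptional response of RCC4 cells to erastin. It was asked of all 12 arrays of the series, because the comparison needs every group, and of all 11963 genes with a probe set assigned to a single symbol. RCC4 is a long-established human cell line from a clear cell renal carcinoma, so the data describe 1 line in culture. The cells received a non-targeting siRNA (siNT) or an siRNA against YAP (siYAP) for 2 days and were then given the vehicle DMSO or erastin at 1 µM for 7 hours. Crossing siRNA and treatment gives 4 groups of 3 arrays, which the submitters describe as biological triplicates. Nothing says how separately the triplicates were grown, so the p-values speak only of the spread among these arrays. A response is the erastin mean minus the DMSO mean of an siRNA arm, on the log2 scale, where 1 is a 2-fold change. The interaction is the siYAP response minus the siNT response. A positive interaction is a response that was more positive after silencing.

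Erastin inhibits system xc-, the exchanger that brings cystine into the cell, and so starves the cell of cysteine for glutathione. Glutathione is the substrate with which GPX4 detoxifies lipid peroxides, and its loss can lead to ferroptosis, a form of cell death that depends on iron. Shortage of an amino acid also activates the kinase GCN2, which allows the transcription factor ATF4 to be translated. ATF4 then induces genes for amino acid import, amino acid synthesis and tRNA charging, together with stress regulators such as CHOP (DDIT3). YAP is a transcriptional co-activator that works with TEAD factors and is restrained by the Hippo kinases, for example in dense cultures.

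The deposited values ran from 2.02 to 14.4 on the log2 scale, array medians lay between 6.49 and 6.52, and arrays of a group correlated at 0.9955 to 0.9986. YAP1 checked the labels. Its level was 8.55, 8.59 and 8.47 in siNT with DMSO and 8.47, 8.52 and 8.65 in siNT with erastin. It was 4.18, 4.88 and 4.81 in siYAP with DMSO and 4.68, 6.21 and 4.90 in siYAP with erastin. No siYAP array overlapped the siNT arrays, but replicate 2 of siYAP with erastin was the least silenced. The interaction of YAP1 was 0.63 (95% interval -0.31 to 1.58) and 0.16 without that array. The immune, endothelial and fibroblast or pericyte markers were low in every group, with median levels of 4.51 to 4.63, 4.12 to 4.17 and 4.53 to 4.66. Markers of renal tubule and clear cell carcinoma had group medians of 8.02 to 8.98. Single markers went the other way. Below a level of 6 stood 10 of 11 immune, 10 of 10 endothelial, 9 of 12 fibroblast or pericyte and 5 of 18 renal markers. The actin control for RNA integrity (3' minus 5' ACTB probe set) was 2.68 ± 0.282 and 2.26 ± 0.691 in siNT and 2.59 ± 0.955 and 3.54 ± 0.179 in siYAP, with DMSO and with erastin (SD, n = 3), so that it differed between the responses by 1.36. The same control of GAPDH differed by -0.0115.

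No gene had an erastin response that differed between the siRNA arms at an adjusted p under 0.05 (limma, Benjamini-Hochberg over all genes, 0 of 11963, or 0%). The smallest adjusted p was 0.153, for SLC1A4. At an unadjusted p under 0.05 there were 1179 genes (9.86%), of which 680 (5.68%) had a positive and 499 (4.17%) a negative interaction. If no response differed, a share near the threshold of 0.05 itself would be expected. The observed share was larger, and the cause of that excess was not tested. The 95% interval of the interaction lay within ±0.5 for 9993 genes (83.5%) and within ±1 for 11917 (99.6%). The intervals are those of single genes and are not adjusted for their number. For the other 46 genes the interval reached a 2-fold difference. Leaving out any single array also gave 0 calls, with 837 to 1530 genes at an unadjusted p under 0.05, and 849 without the least silenced array. With the actin control as a covariate, a fit added after the data were seen, 0 genes were called and 744 had an unadjusted p under 0.05. A variance model with trend and robust settings called 8 genes, and array weights called 1. Those genes are described with their values below.

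The responses themselves were small in number and mostly shared in direction. In siNT cells 90 genes (0.752%) were called, 58 higher (0.485%) and 32 lower (0.267%). In siYAP cells 40 genes (0.334%) were called, 39 higher (0.326%) and HBEGF lower (0.00836%). The arms have no array in common in these responses. They do share an estimate of each gene's spread from all 12 arrays, so the lists are not independent. Both lists held 24 genes, which is 26.7% of the siNT list and 60% of the siYAP list, and 0 genes were called in opposite directions. Of those 24, 23 rose and HBEGF, a ligand of the EGF receptor, fell in both arms. Of the 58 genes that rose in siNT, 47 had a positive siYAP response, with medians of 0.445 in siNT and 0.274 in siYAP. Of the 32 that fell in siNT, 25 had a negative siYAP response, with medians of -0.328 and -0.074. All 39 genes that rose in siYAP had a positive siNT response, with medians of 0.534 in siYAP and 0.365 in siNT. A median in the arm that chose the genes is made larger by that choice. The counts rest on few arrays: leaving out single arrays gave 34 to 76 calls in siNT and 20 to 45 in siYAP, with 22 in siYAP without the least silenced array. The count of genes that fell in siNT depended on the setting: it was 8 to 23 with single arrays left out (8 without siNT DMSO replicate 1 or 2 or siNT erastin replicate 1), 0 with only the 6 arrays compared and 177 with array weights. With the actin control as a covariate the counts were 67 and 22, and 15 of the 24 shared genes were called in both arms. Over all genes the responses of the arms correlated at r = 0.129, a value across genes that are not independent.

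**Figure D1:**
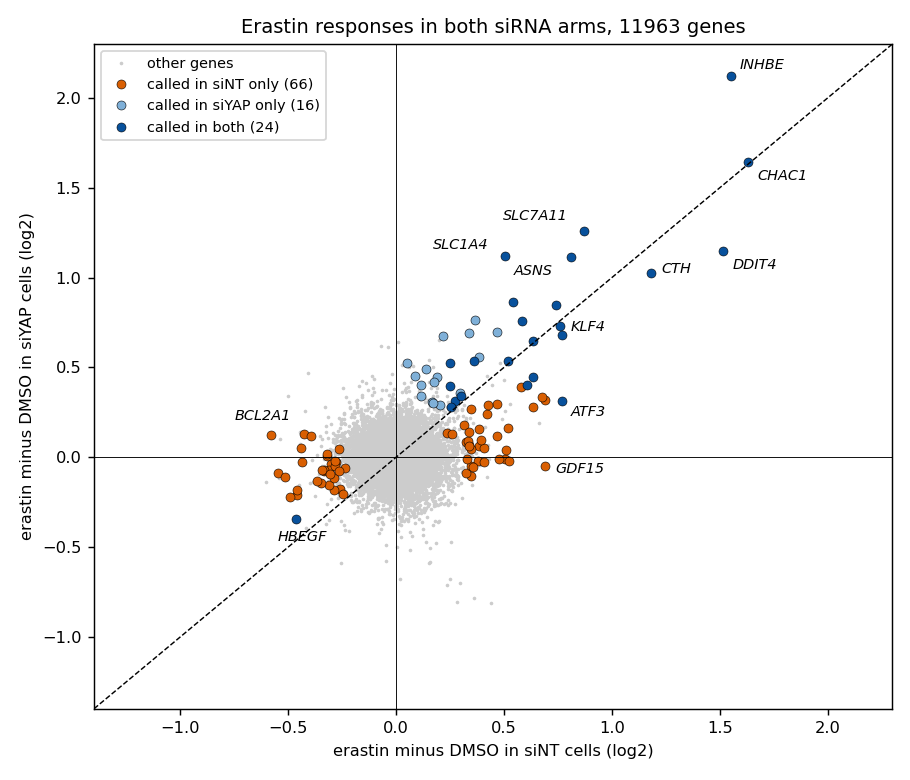
Each point is a gene, with its erastin response in siNT cells on the horizontal axis and in siYAP cells on the vertical axis (log2), and the dashed line marks equal responses. The 24 genes called in both arms (dark blue) run along the dashed line from HBEGF at the lower left to INHBE and CHAC1 at the upper right, while genes called in siNT alone (orange, 66) lie nearer to the horizontal axis.

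Most genes that rose in both arms stood on lists of ATF4-related genes. These lists were chosen with earlier results of these data known, so the overlap is a description. Of the 24 genes called in both, 20 stood on the 4 lists of ATF4 regulators, serine and one-carbon enzymes, amino acid transporters and aminoacyl-tRNA synthetases. Together the lists hold 68 of the 11963 genes. Of these 68, 24 rose in siNT (35.3%) and 23 in siYAP (33.8%), against 0.485% and 0.326% of all genes. Their median responses were 0.17 and 0.16, against medians of -0.00353 and 0.00187 over all genes. Their median interaction was -0.02, 31 were positive and 37 negative, and 0 were called. Over all genes 6267 interactions were positive and 5696 negative. At an unadjusted p under 0.05 stood 11 positive and 6 negative members of the 68, against 5.68% and 4.17% of all genes. The interval lay within ±0.5 for 53 of the 68, against 83.5% of all genes. The list members started from another level after silencing. In DMSO 31 of the 68 were lower and 7 higher in siYAP than in siNT, against 15.6% lower and 18.1% higher among all genes. Genes named in the next paragraphs beyond the fixed ones, the smallest p and the leading list members were picked because they were called in an arm, after their values were seen.

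Among the stress regulators and effectors, 12 of 19 rose in siNT and 11 in siYAP, against 0.485% and 0.326% of all genes. CHAC1, a glutathione-degrading enzyme often used as a marker of system xc- inhibition, had the smallest adjusted p in both arms. Its level was 7.03, 7.18 and 7.16 in siNT with DMSO and 8.68, 8.73 and 8.86 with erastin. After silencing it was 6.34, 6.38 and 6.40 with DMSO and 8.09, 7.99 and 7.96 with erastin. All 4 groups were apart from each other, and silenced cells were lower before and after erastin. The response was 3.10-fold (log2 1.63, SE 0.064) in siNT and 3.12-fold (1.64, SE 0.064) in siYAP, with adjusted p of 7.92e-08 and 7.45e-08 (limma). The interaction was 0.01 with a 95% interval of -0.19 to 0.21. Under erastin the level of CHAC1 was 0.74 lower after silencing (adjusted p = 1.93e-06, limma).

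INHBE, which encodes the activin E subunit, had the largest response in silenced cells. Its level was 6.29, 6.25 and 6.24 in siNT with DMSO and 7.79, 7.58 and 8.06 with erastin. In siYAP it was 4.45, 4.51 and 4.34 with DMSO and 6.47, 6.58 and 6.61 with erastin. Silenced cells started far below the control arm, and under erastin all 3 arrays lay above the untreated control arrays but below the treated ones. The response was 1.55 in siNT and 2.12 in siYAP, and the interaction of 0.57 (95% interval 0.27 to 0.87, unadjusted p = 0.00136) did not pass the adjustment (adjusted p = 0.354, limma).

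DDIT4, an inhibitor of mTORC1, had values in the opposite order. It was 9.74, 9.77 and 9.75 in siNT with DMSO and 11.29, 11.14 and 11.38 with erastin, and 8.91, 8.93 and 9.00, then 10.18, 10.06 and 10.04, in siYAP. The groups did not overlap. The response was 1.52 in siNT and 1.15 in siYAP, with an interaction of -0.37 (95% interval -0.57 to -0.17, adjusted p = 0.378, limma).

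ATF3, a stress-induced transcription factor, started higher after silencing, unlike CHAC1, INHBE and DDIT4. It was 8.42, 8.54 and 8.42 in siNT with DMSO and 9.22, 9.22 and 9.24 with erastin. In siYAP it was 9.47, 9.50 and 9.41 with DMSO and 9.81, 9.72 and 9.78 with erastin, so that untreated silenced cells already exceeded treated control cells. The response was 0.77 in siNT and 0.31 in siYAP, both called. The interaction was -0.46 (95% interval -0.62 to -0.29, unadjusted p = 4.92e-05, adjusted p = 0.272, limma).

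ATF4, CHOP (DDIT3), CEBPB, TRIB3, STC2 and NUPR1 rose in both arms. ATF4 rose by 0.27 in siNT and 0.31 in siYAP from a start that was 0.43 lower, with an interaction of 0.04 (95% interval -0.11 to 0.19). Its siYAP level under erastin (12.38 ± 0.03) stayed below the siNT level in DMSO (12.50 ± 0.029, SD, n = 3). DDIT3 rose by 0.60 and 0.40, with an interval of -0.43 to 0.02 for the difference. CEBPB, a bZIP factor that pairs with ATF4, rose by 0.64 and 0.45, with an interval whose upper end was at 0 and an unadjusted p of 0.0491. TRIB3, a pseudokinase that feeds back on ATF4 and CHOP, rose by 0.36 and 0.53 and started 0.90 lower after silencing. STC2, a secreted glycoprotein, rose by 0.77 and 0.68, and NUPR1, a stress-induced chromatin protein, by 0.58 and 0.76. The intervals of the interaction were -0.25 to 0.08 for STC2 and -0.15 to 0.50 for NUPR1.

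**Figure D2:**
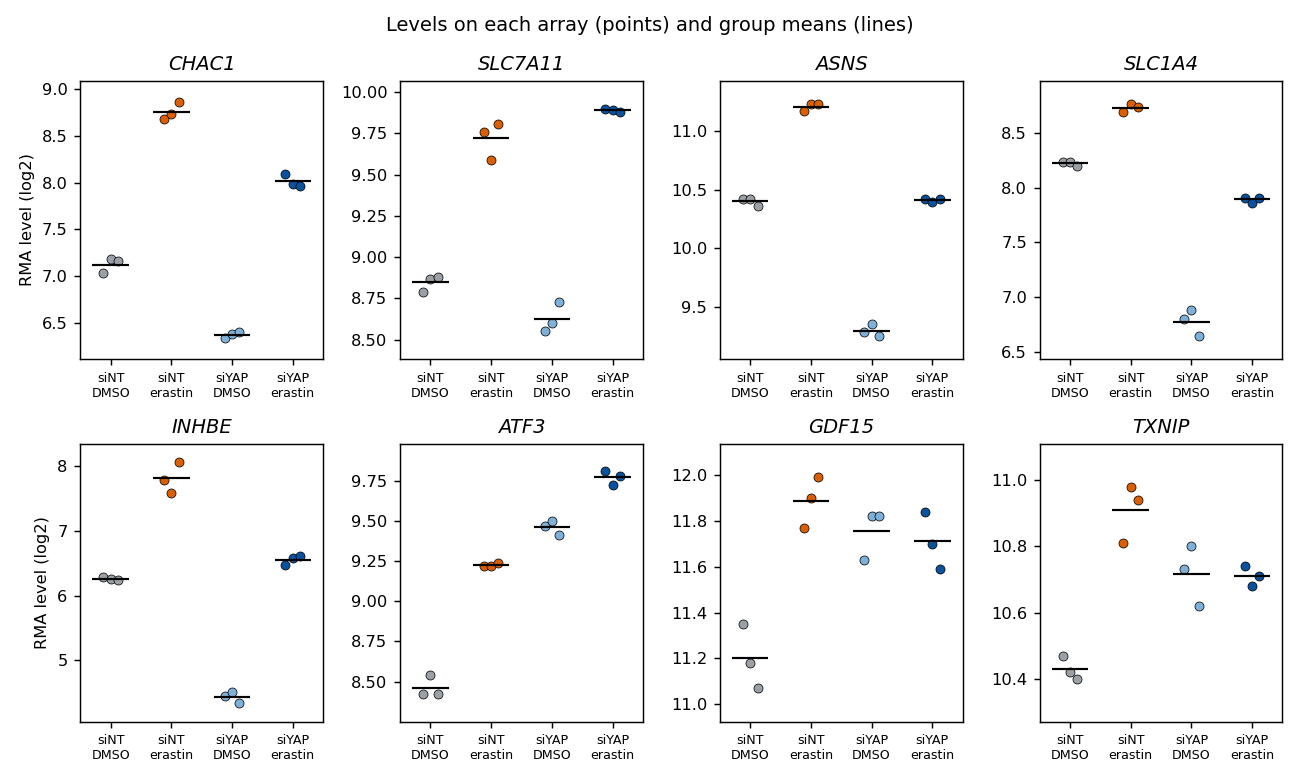
RMA levels (log2) of 8 genes on each array (points) and the mean of each group (lines), with a separate vertical range per gene. CHAC1, ASNS, SLC1A4 and INHBE start lower in siYAP than in siNT and rise in both arms, while GDF15 and TXNIP are higher with erastin in siNT and show overlapping siYAP groups.

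Enzymes of serine, one-carbon, asparagine and cysteine synthesis rose in 5 of 13 cases in each arm. Over all genes 0.485% rose in siNT and 0.326% in siYAP. ASNS, asparagine synthetase, was 10.42, 10.42 and 10.36 in siNT with DMSO and 11.17, 11.23 and 11.23 with erastin. It was 9.28, 9.35 and 9.25 in siYAP with DMSO and 10.42, 10.39 and 10.42 with erastin. Erastin thus took silenced cells to the range of untreated control cells, where the arrays overlapped. The responses were 0.81 and 1.12, and the interaction was 0.30 (95% interval 0.16 to 0.45, unadjusted p = 7.86e-04, adjusted p = 0.354, limma).

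MTHFD2, a mitochondrial folate enzyme, rose by 0.54 in siNT and 0.86 in siYAP from a start 0.94 lower, with an interval of 0.09 to 0.55 for the difference. PCK2, the mitochondrial PEP carboxykinase, rose by 0.74 and 0.85, and PSPH, which makes serine from phosphoserine, by 0.63 and 0.65. Another probe set of PSPH, at a mean level of 8.42, gave smaller responses of 0.36 and 0.16, an interaction of -0.20. PSPH was the exception in its start, which was 0.36 higher after silencing (adjusted p = 0.00166, limma). CTH, which makes cysteine from cystathionine, rose by 1.18 and 1.03, with an interaction of -0.15 (95% interval -0.44 to 0.13). A dimmer probe set of CTH gave 1.19 and 0.43, a difference of -0.76, so the probe sets disagree on how far the CTH response differed.

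Promoter sequences were compared for the genes that rose in both arms. ATF4 with C/EBP partners binds composite elements whose core can be written TGATGNAA. That core was looked for on both strands in the 250 bases before the gene start in RefSeq (GRCh38.p14), for 9563 of the 11963 tested genes. Genes outside the 9563 were not searched, because they had no entry or lay on a chromosome that was left out of the search. Of the 23 genes that rose in both arms, 18 had an entry and were searched. The core was present in 3 of these 18 (16.7%) and in 189 of the 9563 genes searched (1.98%). The 3 windows of 60 bases are shown on the strand of the gene because these genes stand among the results above. Capitals mark the match, which for CHAC1 lies on the opposite strand. The windows are chr1:212565190-212565249 for ATF3 (plus strand, 183 bases between the match and the gene start), chr7:97872443-97872502 for ASNS (minus strand, 60 bases) and chr15:40953236-40953295 for CHAC1 (plus strand, 201 bases).
ATF3: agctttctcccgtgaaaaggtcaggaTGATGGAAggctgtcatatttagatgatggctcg
ASNS: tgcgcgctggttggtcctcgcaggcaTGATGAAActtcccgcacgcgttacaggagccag
CHAC1: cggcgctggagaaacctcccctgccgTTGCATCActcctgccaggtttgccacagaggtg
A match describes letters in a window and is not a measured binding site. The 3 genes had interactions of -0.46, 0.30 and 0.01, so the core was found in genes with a negative, a positive and a near-zero difference.

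Amino acid transporters rose in 4 of 20 cases in siNT and 3 in siYAP, against 0.485% and 0.326% of all genes. SLC1A4, the neutral amino acid transporter ASCT1, had the smallest interaction p of all genes. It was 8.24, 8.24 and 8.20 in siNT with DMSO and 8.69, 8.77 and 8.74 with erastin. In siYAP it was 6.80, 6.88 and 6.64 with DMSO and 7.91, 7.86 and 7.91 with erastin. No groups overlapped, and the treated silenced cells remained below the untreated control cells. The response was 1.42-fold (0.51, SE 0.062) in siNT and 2.17-fold (1.12, SE 0.062) in siYAP. The interaction was 0.61 (SE 0.087, 95% interval 0.42 to 0.80, unadjusted p = 1.28e-05, adjusted p = 0.153, limma). It ranged from 0.55 to 0.67 when single arrays were left out and was 0.71 with the actin control as a covariate. The adjusted p over 20 alternatives ran from 0.0148 to 0.61, and it was under 0.05 with the trend and robust variance (0.0148) and with array weights (0.0197). Of the other probe sets of SLC1A4, those at mean levels of 7.74 and 7.50 gave 0.64 and 0.85, and a dimmer one at 5.93 gave 0.07.

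SLC7A11, the cystine transport subunit of system xc- and so the direct target of erastin, was 8.79, 8.87 and 8.88 in siNT with DMSO and 9.76, 9.59 and 9.81 with erastin. In siYAP it was 8.55, 8.60 and 8.73 with DMSO and 9.90, 9.89 and 9.88 with erastin. Silenced cells began slightly lower (-0.22, adjusted p = 0.0231, limma) and ended above every treated control array. That difference of 0.17 under erastin was not called (adjusted p = 0.0714, limma). The response was 1.83-fold (0.87) in siNT and 2.39-fold (1.26) in siYAP. The interaction was 0.39 (95% interval 0.18 to 0.60, unadjusted p = 0.00147, adjusted p = 0.354, limma). Its other probe sets gave 0.33 at a mean level of 8.32 and -0.12 at 5.29.

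SLC3A2, the heavy chain that pairs with SLC7A11, did not follow it. It rose by 0.40 in siNT (adjusted p = 0.023, limma), had a siYAP response of 0.10 and an interaction of -0.30 (95% interval -0.51 to -0.09). SLC38A2, a transporter of small neutral amino acids, rose by 0.67 in siNT and had a siYAP response of 0.34 that was not called. SLC7A1, the cationic amino acid transporter, was called in siYAP (0.49) but not in siNT (0.14), with an interval of 0.16 to 0.55 for the difference. It started 1.27 lower after silencing. None of these differences passed the adjustment.

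Among cytosolic aminoacyl-tRNA synthetases, which charge tRNAs with their amino acids, 3 of 16 rose in siNT and 4 in siYAP. The shares over all genes were 0.485% and 0.326%. GARS1 (glycyl) rose by 0.30 and 0.34, CARS1 (cysteinyl) by 0.25 and 0.52 and WARS1 (tryptophanyl) by 0.25 and 0.40. YARS1 (tyrosyl) was called in siYAP alone, at 0.30 against 0.17. All 16 had an interaction interval within ±0.5. The largest interaction was that of CARS1, at 0.27 (95% interval 0.12 to 0.42), and the lowest was -0.14, for SARS1.

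Over the 23 genes that rose in both arms, the median response was 0.634 in siNT and 0.68 in siYAP and the median interaction 0.0385. The interaction was positive for 16 and negative for 7, and its interval lay within ±0.5 for 17, against 83.5% of all genes. An unadjusted p under 0.05 was reached by 10 of the 23, 7 positive and 3 negative, against 9.86% of all genes. In DMSO, 15 of the 23 were lower after silencing, 2 were higher and 6 were not called. Over all genes 15.6% were lower and 18.1% higher. Of the 15, 10 had a siYAP mean under erastin at or above the siNT mean in DMSO, and 5 stayed below it. Compared with siNT under erastin, 13 of the 15 were still called lower in siYAP. Of all 23, 15 were called lower and 2 higher under erastin, against 14.8% and 20% of all genes. The remaining members of the 23 that stood on none of the 4 lists were KLF4, CALCB and KDM4A. KLF4, a Krüppel-like transcription factor, rose by 0.76 and 0.73, CALCB, which encodes a calcitonin gene-related peptide, by 0.52 and 0.54, and KDM4A, a histone demethylase, by 0.26 and 0.28. A dim probe set of KLF4, at a mean level of 4.60, gave 0.18 and 0.23. CALCB lay at levels of 3.30 to 4.08, among the dimmest values of the array. In all 20 alternative settings every gene of the 24 that was tested kept its sign in both arms, and 14 to 24 were called in both. The 24 were chosen from these same arrays, so their kept signs were likely from the start.

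**Figure D3:**
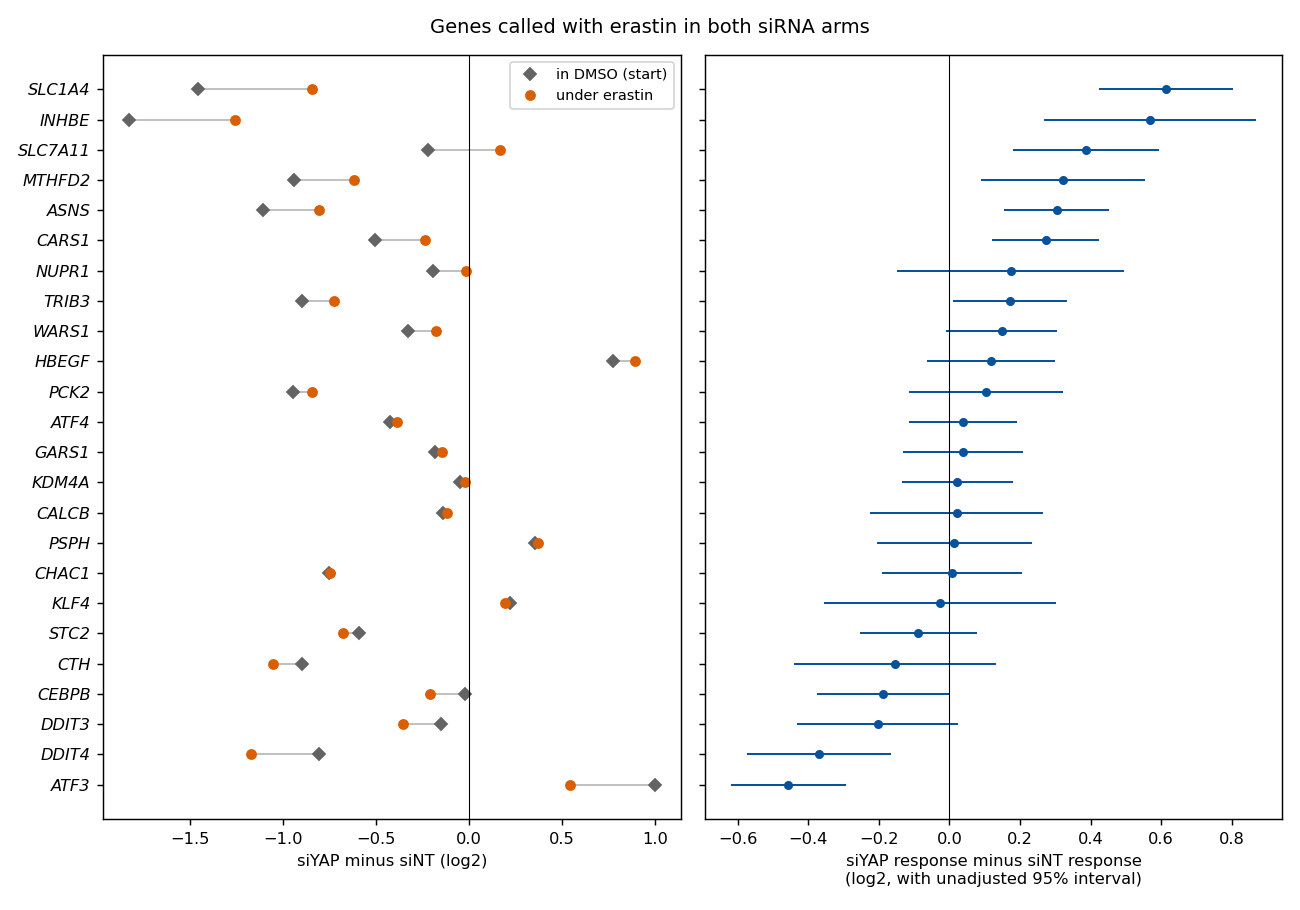
Left, the difference between siYAP and siNT cells in DMSO (diamonds) and under erastin (circles) for the 24 genes called in both arms, and right, the interaction with its unadjusted 95% interval (log2). Most diamonds lie left of 0, and the interactions run from -0.46 for ATF3 to 0.61 for SLC1A4.

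A further 66 genes were called in siNT alone, 35 higher and 31 lower, and 48 of them had the same sign in siYAP. To be called in one arm and not in the other does not show a difference, and the interaction of none of them passed. GDF15, a stress-induced cytokine, had the largest negative interaction among the smallest p. It was 11.35, 11.18 and 11.07 in siNT with DMSO and 11.77, 11.90 and 11.99 with erastin. In siYAP it was 11.63, 11.82 and 11.82 with DMSO and 11.84, 11.70 and 11.59 with erastin. The siNT groups were apart, the siYAP groups overlapped, and untreated silenced cells lay above all untreated controls. The response was 0.69 (SE 0.091) in siNT and -0.05 (SE 0.091) in siYAP. The interaction was -0.73 (95% interval -1.02 to -0.45, unadjusted p = 9.44e-05, adjusted p = 0.272, limma). It was -0.57 with the actin control as a covariate, and a dim probe set of GDF15 at a mean level of 4.71 gave 0.17.

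TXNIP, an inhibitor of thioredoxin, had the same order of groups. It was 10.47, 10.42 and 10.40 in siNT with DMSO and 10.81, 10.98 and 10.94 with erastin, against 10.73, 10.80 and 10.62 and then 10.74, 10.68 and 10.71 in siYAP. The response was 0.48 and -0.01, and the interaction -0.49 (95% interval -0.68 to -0.30, adjusted p = 0.272, limma). Its other probe sets gave -0.59 and -0.40. With the actin control as a covariate the interaction was -0.38.

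Of 23 endoplasmic reticulum chaperones and unfolded protein response genes, 2 rose in siNT and 0 in siYAP. The shares over all genes were 0.485% and 0.326%. XBP1, whose spliced form drives that response, rose by 0.51 in siNT and had a siYAP response of 0.04, with an interaction of -0.47 (95% interval -0.71 to -0.22). HERPUD1, a component of endoplasmic reticulum degradation, rose by 0.52 and had a siYAP response of 0.17, with an interaction of -0.35 (95% interval -0.52 to -0.18). HERPUD1 already stood at 11.16, 11.15 and 11.19 in untreated silenced cells, near the 11.06, 11.05 and 11.21 of treated control cells. The median interaction of the list was 0.05, with 15 of 23 positive, which XBP1 and HERPUD1 were not.

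NRF2 targets rose in 3 of 28 cases in siNT and 1 in siYAP, against 0.485% and 0.326% of all genes. HMOX1, heme oxygenase 1, was 10.16, 10.18 and 10.10 in siNT with DMSO and 10.76, 10.81 and 10.94 with erastin, and 10.53, 10.69 and 10.55 in siYAP with DMSO, with a mean of 10.91 ± 0.087 with erastin (SD, n = 3). Both arms reached similar levels under erastin (10.84 ± 0.093 in siNT) from different starts. The response was 0.69 in siNT and 0.32 in siYAP (adjusted p = 0.108, limma), with an interaction of -0.37 (95% interval -0.58 to -0.16). Among p53 targets 2 of 22 rose in siNT and 0 in siYAP, 17 of 22 interactions were negative (GDF15, which is on this list too, was the lowest), and the median was -0.10 against 0.01 over all genes. CDKN1A, the p21 inhibitor of cyclin-dependent kinases, rose by 0.24 in siNT and had a siYAP response of 0.13, with an interaction interval of -0.25 to 0.05.

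Genes that fell in siNT included feedback and inflammatory genes, from the list whose length depended on the setting. Of 20 MAPK feedback genes 3 fell in siNT and 0 in siYAP, against 0.267% and 0.00836% of all genes. DUSP7, a phosphatase of ERK, fell by 0.52 in siNT and had a siYAP response of -0.11, with an interaction of 0.40 (95% interval 0.21 to 0.60). RGS2, a regulator of G protein signalling, fell by 0.49 and had a siYAP response of -0.22. Among 30 chemokines, interleukins and NF-kB feedback genes, 2 fell in siNT and 0 in siYAP. CCL2, a monocyte chemokine, fell by 0.55 in siNT from 9.97, 9.98 and 10.40 to 9.64, 9.68 and 9.39. In siYAP it stood at 11.09, 11.16 and 11.16 with DMSO and 11.01, 11.08 and 11.05 with erastin, a response of -0.09, and the interaction was 0.46 (95% interval 0.13 to 0.79). NFKBIE, an inhibitor of NF-kB, fell by 0.31 and had a siYAP response of -0.16. Over that list 21 of 30 interactions were positive, with a median of 0.14 against 0.01 over all genes.

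CCNE1, cyclin E1, fell by 0.32 in siNT and had a siYAP response of 0.01 from a start 0.95 lower. ANGPTL4, a secreted inhibitor of lipoprotein lipase, fell by 0.30 and had a siYAP response of -0.04. PLAUR, the urokinase receptor, fell by 0.46 and had a siYAP response of -0.21, and DNAJB1, a heat shock co-chaperone, fell by 0.26 against -0.18. The intervals of the interaction were 0.13 to 0.53 for CCNE1, 0.08 to 0.45 for ANGPTL4, 0.02 to 0.47 for PLAUR and -0.07 to 0.23 for DNAJB1. Another probe set of DNAJB1 gave an interaction of -0.23, against 0.08 for the one used. HBEGF, the gene called lower in both arms, fell by 0.46 in siNT and 0.35 in siYAP, with an interval of -0.06 to 0.30 for the difference and a start 0.77 higher after silencing.

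In siYAP alone 16 genes were called, all higher, and all 16 had a positive siNT response. They included CEBPG, a bZIP partner of ATF4, at 0.69 in siYAP against 0.34 in siNT, and EIF4EBP1, an inhibitor of cap-dependent translation, at 0.45 against 0.19. LY96, the MD-2 partner of TLR4, had 0.67 against 0.22, from a low level of 4.83 to 5.03 in untreated silenced cells. The interaction intervals were 0.09 to 0.62 for CEBPG, 0.02 to 0.49 for EIF4EBP1 and 0.08 to 0.83 for LY96, and none passed the adjustment.

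The 12 genes with the smallest unadjusted p in each direction are values that did not pass, with p from 1.28e-05 to 7.43e-04 on the positive side and 4.92e-05 to 8.73e-04 on the negative side. Their adjusted p ran from 0.153 to 0.354 (limma). On the positive side interactions lay between 0.33 and 0.61, and 10 of the 12 had a negative siNT response, 5 of them called. SLC1A4 was the exception that rose in both arms. CD83, a surface protein of activated dendritic cells, fell by 0.43 in siNT from 8.26, 8.33 and 8.26 to 7.87, 7.79 and 7.89. In siYAP it was 8.60, 8.74 and 8.68 and then 8.59, 8.73 and 8.62, a response of -0.03. TMEM158, a membrane protein first described in Ras-induced senescence, fell by 0.44 in siNT and had a siYAP response of 0.05, and LTB, lymphotoxin beta, fell by 0.43 against 0.13. HEY1, a Notch target, was called in siYAP (0.52) with an siNT response of 0.05. The others were TUBBP5 (interaction 0.51, at levels of 2.94 to 3.49, among the dimmest values of the array), H2BC12L (0.49), GID4 (0.41), ATXN7L1 (0.49), STK10 (0.33), DUSP7 (0.40) and ARHGAP22 (0.35).

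On the negative side interactions lay between -0.73 and -0.35, and all 12 siNT responses were positive, 9 of them called. JAG1, a Notch ligand, rose by 0.32 in siNT and had a siYAP response of -0.09, with an interaction of -0.41. A second bright probe set of JAG1 gave -0.34, a dimmer one -1.15 and the dimmest 0.19. EGR1, an immediate early transcription factor, rose by 0.47 in siNT from 8.00, 8.02 and 8.01 to 8.54, 8.42 and 8.46. It stood at 8.70, 8.69 and 8.69 in untreated silenced cells and at 8.76, 8.82 and 8.86 with erastin, a response of 0.12. ASS1, which joins citrulline and aspartate in arginine synthesis, rose by 0.35 against -0.11, and MAF, a bZIP factor, by 0.52 against -0.02. Another probe set of MAF, at a similar mean level of 7.23, gave 0.11 in siNT and 0.27 in siYAP, an interaction of 0.15, so the probe sets of MAF disagree on its direction. ALDH1A1, a retinaldehyde dehydrogenase, had 0.26 and -0.16, and HLA-G, a non-classical class I molecule whose probe set may also read its near-identical relatives, had 0.13 and -0.25. The others were ATF3, GDF15, TXNIP and HERPUD1, described above, with MBNL2 (-0.40) and TSPAN12 (-0.38).

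In DMSO, 6 of the 12 positive genes were lower and 3 higher after silencing, and 10 of the 12 negative genes were higher and 0 lower, against 18.1% higher and 15.6% lower among all genes. The starting difference and the interaction share both DMSO groups, so an array that is high by chance in a DMSO group moves both values in opposite directions, and the pattern is given as a description. All 478 values of the 24 genes under the alternatives kept their sign. The genes were chosen for their interaction in these same arrays, which the alternatives reuse, so kept signs were likely from the start. Of the 12 genes with further probe sets, 7 had every other probe set on the same side. The trend and robust variance called SLC1A4 and TMEM158 (adjusted p = 0.0435, limma) as positive and ALDH1A1, ATF3, GDF15, HLA-G, JAG1 and TXNIP as negative, at adjusted p of 0.0148 to 0.0435.

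**Figure D4:**
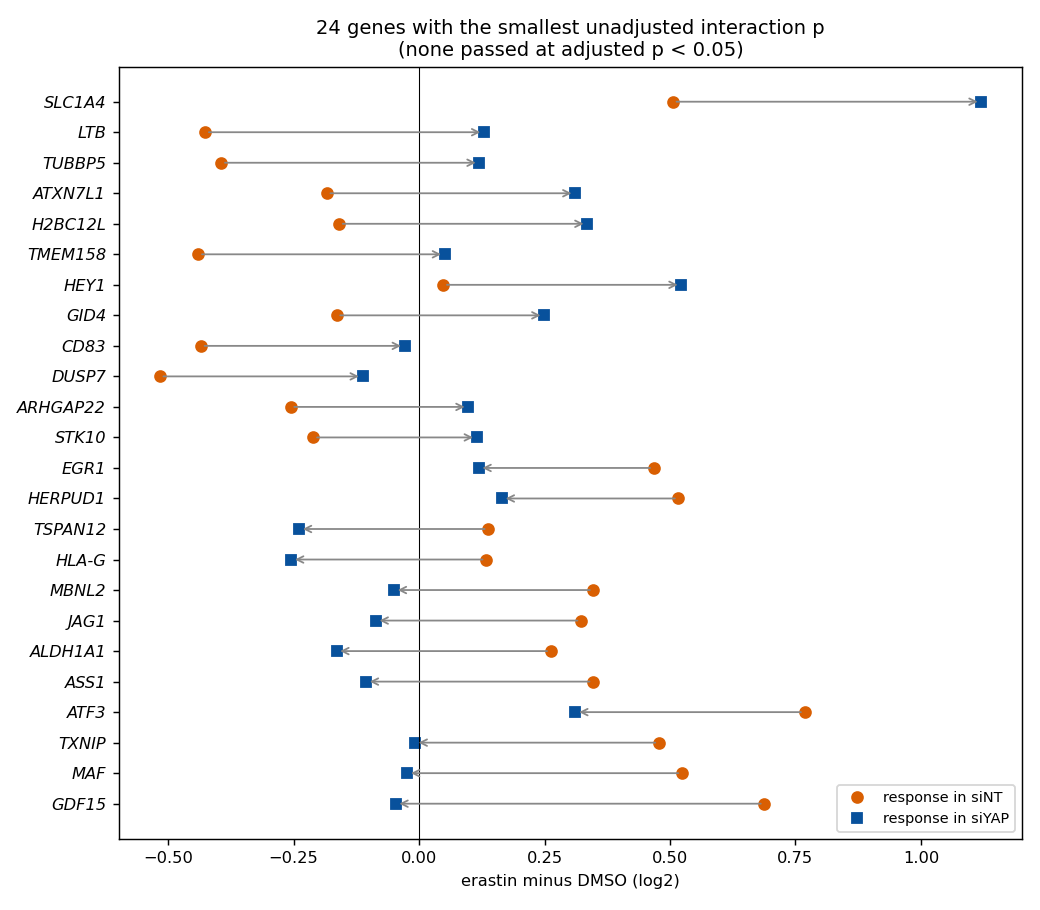
Erastin response (log2) in siNT cells (circles) and in siYAP cells (squares) for the 24 genes with the smallest unadjusted interaction p, joined by arrows from siNT to siYAP. The genes were chosen for this difference, which ran from -0.73 for GDF15 to 0.61 for SLC1A4, and none passed at an adjusted p under 0.05.

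Several genes of interest to YAP and to ferroptosis had erastin responses that were not called in either arm. GPX4, the lipid peroxide reductase, had 0.01 in siNT and 0.11 in siYAP, with an interval of -0.12 to 0.33 for the difference. ACSL4, which supplies polyunsaturated acyl-CoA to membranes, had -0.03 and -0.01 (-0.29 to 0.34), and TFRC, the transferrin receptor, 0.06 and 0.01 (-0.21 to 0.10). EMP1, an epithelial membrane protein, had -0.09 and -0.06 (-0.31 to 0.37). WWTR1, which encodes the YAP paralogue TAZ, had -0.02 and -0.12 (-0.27 to 0.07). SKP2, the substrate receptor of an SCF ubiquitin ligase, had -0.17 and 0.03 (-0.25 to 0.65). SKP2 was 8.08, 8.75 and 8.00 in siYAP with erastin, so its highest value was on the array with the least silenced YAP1. Without that array the interaction of SKP2 was -0.04. Dimmer probe sets of SKP2, at mean levels of 5.1 and 3.73, gave interactions of -0.0 and -0.32. Silencing had moved the start of SKP2 by -2.38, of EMP1 by 1.36 and of ACSL4 by -0.56. Differences of 2-fold between the responses lay outside the intervals of all these genes.

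In the remaining lists 0 members were called in the interaction. Among 38 S phase genes the interaction was positive for 28, with a median of 0.10, and among 40 genes of G2 and mitosis for 33, with a median of 0.09. The responses behind these were -0.14 in siNT and -0.08 in siYAP for S phase, and -0.09 in siNT for G2 and mitosis. An unadjusted p under 0.05 was reached by 8 of 38 S phase genes (6 positive, 2 negative) and 1 of 40 mitotic genes (positive), against 9.86% of all genes. In DMSO 38 of 38 S phase and 40 of 40 mitotic genes were called lower after silencing, against 15.6% of all genes. The median starting differences were -0.9 and -1.07. Interferon-stimulated genes had 30 of 44 interactions below 0 and a median of -0.07, and YAP and TAZ targets 15 of 19 and -0.07. Over all genes 5696 of 11963 interactions were below 0. In DMSO 33 of the 44 interferon-stimulated genes were called higher after silencing and 2 lower (median 0.44). Of the 19 YAP and TAZ targets 4 were higher and 4 lower, against 18.1% and 15.6% of all genes. Ribosomal protein genes had narrow intervals, with 34 of 34 intervals within ±0.5 and interactions between -0.07 and 0.09. Members of a list share regulation and arrays, and starting differences share both DMSO groups with the interaction, so these counts are descriptions. The actin control differed between the responses as given above, and its part in the list medians was not tested.

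**Figure D5:**
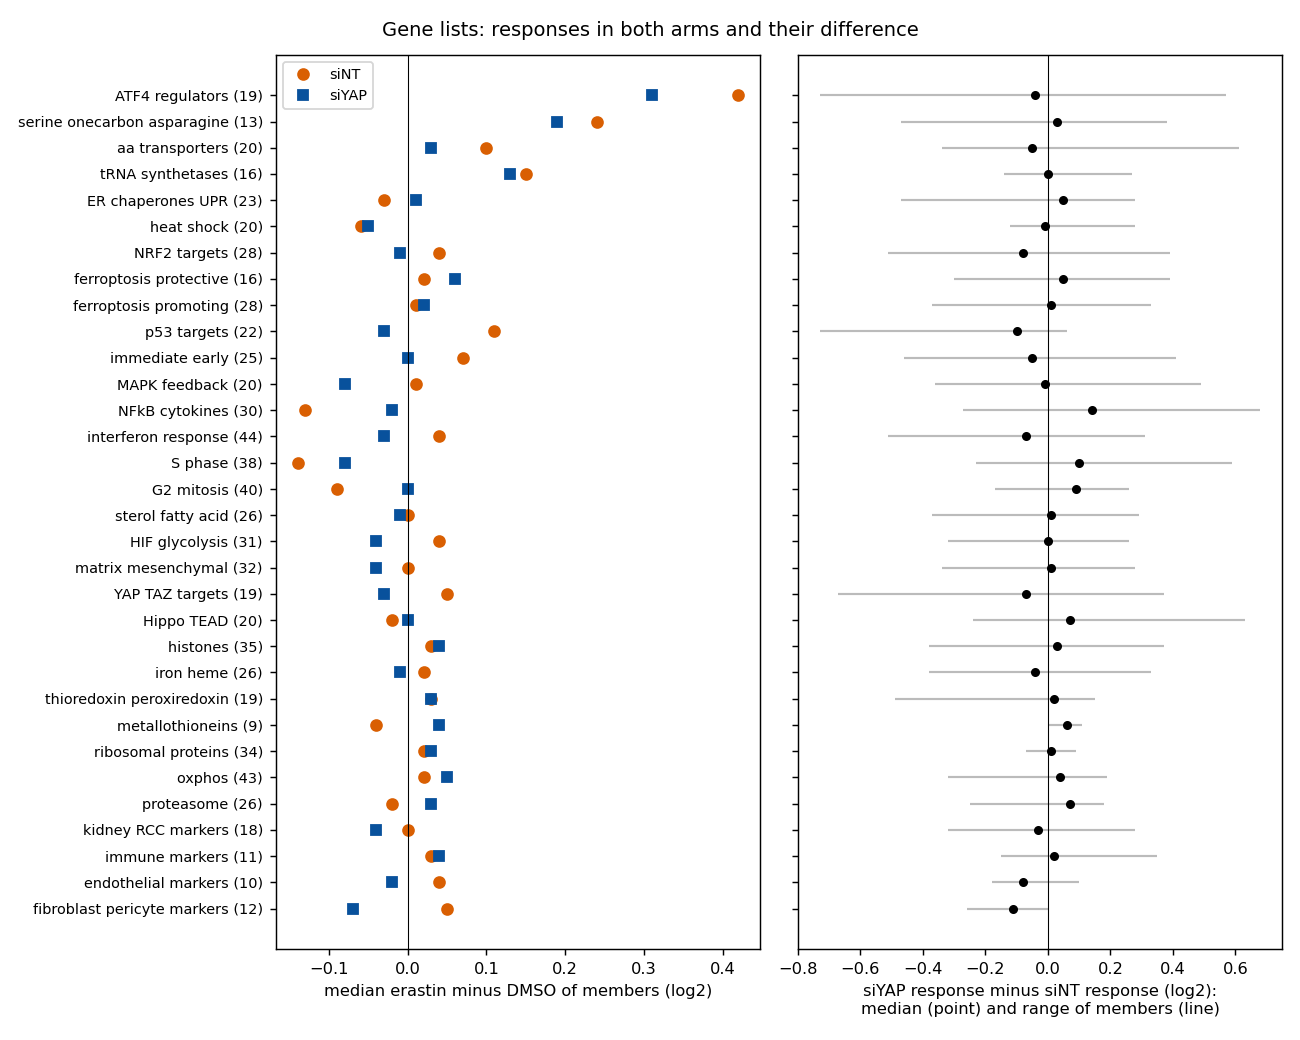
Left, the median erastin response of each gene list in siNT (circles) and siYAP (squares), and right, the median interaction (points) with the lowest and highest member (lines), all on the log2 scale, with the number of measured genes in parentheses. ATF4 regulators lie apart from the other lists in both arms (0.42 and 0.31), and every median interaction lies between -0.11 and 0.14.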

How the data were processed

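Per the submitters' processing notes, the authors made the deposited log2 values with Affymetrix Expression Console and RMA, with versions not given in the sources used here. It equalises the arrays, so a change in total RNA per cell is not seen, and responses of dim probe sets are compressed. The table held 22277 probe sets, 62 of them controls. The platform table gave 1 symbol for 19065, several for 1043 and none for 2107. Genes (11963) were each read from their brightest single-symbol probe set, by the mean of all arrays. Groups came from the sample titles, and no batch is given.

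limma 3.58.1 in R 4.3.3 fitted a mean per group to 12 arrays (8 residual and 4.17 prior degrees of freedom), with 2-sided tests and Benjamini-Hochberg adjustment over all genes. Genes at adjusted p under 0.05 were called. The analysis was tested on simulated data. The number of arrays limits the precision, and the median standard error of an interaction was 0.11.

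The members and lists were chosen with earlier results of these data known. Named genes were 9 fixed ones, the 12 smallest interaction p in each direction, since 0 were called, and up to 2 members with the largest called siNT response from each of 32 lists. Alternatives were the replicate number as a block, array centring, quantile normalization, removal of the dimmest 30%, probe set means, every probe set, trend and robust variance, array weights, only the arrays compared, a 2-fold minimum, each array left out and, added after the data were seen, the ACTB covariate.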

Additional observations from a re-analysis of the deposited data

How the results depend on the processing

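The interaction was 0 genes in every setting except trend and robust variance (8) and array weights (1). With a 2-fold minimum 4 genes were called with erastin in siNT, 7 in siYAP and 324 with silencing in DMSO. Trend and robust variance called 161 and 74 erastin genes in siNT and siYAP, array weights 323 and 73, and a fit of only the 6 arrays compared 15 and 26. Removal of the dimmest 30% called 165 in siNT, and the actin covariate 22 in siYAP. With every probe set on its own, 6079 were called for silencing in DMSO, a count of probe sets and not of genes. The cause was not tested. Leaving out single arrays gave 0 to 0 genes for the interaction, 34 to 76 for siNT, 20 to 45 for siYAP and 3424 to 4311 for silencing in DMSO. The siNT count moved by over 1.5 times without any siNT DMSO array (35, 38 and 44), siNT erastin replicates 1 (34) or 3 (57), or siYAP erastin replicates 1 (53) or 3 (52). The siYAP count did so without siYAP DMSO replicates 1 (24) or 2 (20) or siYAP erastin replicates 2 (22) or 3 (20).

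Same-numbered samples correlated at -0.417 to 0.19 in their deviations, 1 of 18 pairs over 0.1, so the numbers were not taken as pairing. With the replicate number as a block, 0 genes were called in the interaction, 38 in siNT (9 of them lower), 28 in siYAP and 3850 for silencing in DMSO.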

Other observations

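Among 3150 probe sets that were not used at the gene level because they had no symbol or several, 3 were called with erastin in siNT, 3 in siYAP and 1 in both. In the interaction 0 were called, and the smallest adjusted p was 0.266 (limma).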
